A study of Mus musculus with 16 samples.

Results

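Transcripts of 46 genes were measured in mouse macrophages grown from bone marrow. Most encode enzymes that oxidize pyruvate, acetyl-CoA and fatty acids in mitochondria, and others act before or beside these pathways. Aco1, Idh1 and Mdh1 encode cytosolic enzymes. Members were taken by gene symbol from a list of the pyruvate dehydrogenase complex, the TCA cycle and mitochondrial beta oxidation; the rule itself uses no measured value, although the list was drawn up with earlier results of these data known. All 46 were found once among the 10920 genes of each deposited table. They form a pyruvate dehydrogenase and TCA branch of 25 genes and a beta-oxidation branch of 21 genes, which are described side by side. The study compared macrophages from mice with Sirt3 K223R, a lysine-to-arginine change in the mitochondrial deacetylase SIRT3, with macrophages from wild-type mice, with and without IL-4.

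The 4 groups were Sirt3 K223R macrophages with IL-4, untreated Sirt3 K223R macrophages, wild-type macrophages with IL-4 and untreated wild-type macrophages, with 4 libraries each. All mice were C57BL/6 animals of 8 weeks, and marrow cells were turned into macrophages over 7 days with the growth factor M-CSF (20 ng/ml). IL-4, a cytokine of type 2 immunity that drives alternative (M2) activation, was given at 20 ng/ml for 24 hours. The labels do not say how the Sirt3 allele was made, whether both copies carried it or whether the libraries of a group came from separate mice. The p-values therefore measure the spread between these libraries, which may in part be technical.

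Pyruvate dehydrogenase turns pyruvate into acetyl-CoA, which the TCA cycle oxidizes while passing electrons to NAD and, through succinate dehydrogenase, to the respiratory chain. Long fatty acids are activated to acyl-CoA, enter mitochondria through the carnitine palmitoyltransferases and are shortened by repeated rounds of dehydrogenation, hydration, dehydrogenation and thiolysis, which also yield acetyl-CoA. The acyl-CoA dehydrogenases hand their electrons to the electron transfer flavoprotein. Macrophages activated with IL-4 are known for oxidative metabolism, and SIRT3 is known to remove acetyl groups from several of the enzymes described here; none of these measurements reads acetylation or enzyme activity.

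Each gene has 1 value per library, read as FPKM, a count of fragments divided by transcript length and library size, and these summed to 288143 to 306581 per library, and the sequencing depth is unknown. Sirt3 itself, whose mRNA level cannot check a point change, averaged 1.32 ± 0.10 FPKM in K223R macrophages with IL-4, 1.56 ± 0.14 in untreated K223R, 1.36 ± 0.23 in wild type with IL-4 and 1.48 ± 0.17 in untreated wild type (SD, n = 4 each). It passed the test in no comparison, with limma adjusted p-values of 0.157 for IL-4 in K223R, 0.531 for IL-4 in wild type, 0.889 for K223R against wild type with IL-4, 0.963 untreated, and 0.810 for the interaction. Of 10 macrophage markers 9 were measured, none at 0, and their summed level was 11211 to 13048 FPKM in K223R with IL-4, 13516 to 16280 in untreated K223R, 11210 to 12314 in wild type with IL-4 and 14692 to 16335 in untreated wild type. With IL-4, 2 were called higher and 4 lower in each genotype. The lower ones included Cd14, by -2.08 in K223R and -1.93 in wild type, and Fcgr1, by -1.66 in K223R and -0.95 in wild type, a response that differed between genotypes (interaction -0.70 ± 0.17, limma adjusted p = 0.0372). The receptors Adgre1 and Csf1r had group means of 397 to 448 FPKM and 508 to 558 FPKM. Mrc1, the mannose receptor induced by IL-4, averaged 209 ± 12 FPKM in K223R with IL-4 and 44.2 ± 4.0 untreated, and 213 ± 25 FPKM in wild type with IL-4 and 47.2 ± 9.5 untreated (SD, n = 4 each). Of 10 neutrophil markers 6 were in the tables, none at 0, with summed levels of 40.4 to 63.9 FPKM in K223R with IL-4, 105 to 145 in untreated K223R, 53.5 to 105 in wild type with IL-4 and 78.8 to 165 in untreated wild type. All 6 fell with IL-4 in K223R and 4 of 6 in wild type, and their part in the results below was not tested. Of 7 stromal markers 3 were in the tables, with sums of 0.92 to 2.06 FPKM in K223R with IL-4, 5.31 to 6.35 in untreated K223R, 1.31 to 2.45 in wild type with IL-4 and 3.54 to 4.69 in untreated wild type. The 2 tested were called lower with IL-4 in both genotypes, Acta2 by -1.29 in K223R and -0.87 in wild type. Sparc fell by -0.83 in K223R and -0.30 in wild type, a response that differed between genotypes (interaction -0.52 ± 0.11, limma adjusted p = 0.0205). Itgax, the 1 of 6 dendritic-cell markers in the tables, averaged 389 ± 9.8 FPKM in K223R with IL-4 and 82.5 ± 16 untreated, and 282 ± 17 FPKM in wild type with IL-4 and 85.6 ± 9.2 untreated (SD, n = 4 each). Cd79b, the 1 of 5 B-cell markers measured, was called in no comparison. The part of these markers in the results was not tested. Markers of T and NK cells, mast cells, erythroid cells and adipocytes were not analysed here. In whole cultures, fewer cells of a type and less RNA per cell cannot be told apart.

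One library stood apart before any comparison. Replicate 2 of K223R with IL-4 had the lowest median correlation with its own group, 0.983, against 0.987 to 0.992 in the other 15 libraries, and its share of mitochondrially encoded mRNA was 3.23% of summed FPKM. That share averaged 5.06% ± 1.24 in K223R with IL-4, 6.62% ± 0.309 in untreated K223R, 7.78% ± 0.455 in wild type with IL-4 and 7.78% ± 0.544 in untreated wild type (SD, n = 4 each). Results are given with and without that library where it changes them, and the part of the mitochondrial share in them was not tested.

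Levels differed far more between enzymes than between groups. Idh1, the cytosolic NADP-dependent isocitrate dehydrogenase, was the highest member, with group means of 153.6 to 197 FPKM, and Sdhd, a membrane anchor of succinate dehydrogenase, came next with 100.2 to 122 FPKM. These 2 members stood at or above 100 FPKM in all groups, and 10 members stood below 10 FPKM in all groups. Pcx, the pyruvate carboxylase that refills the cycle with oxaloacetate, was the lowest at 0.125 ± 0.078 FPKM in K223R with IL-4, 0.320 ± 0.10 in untreated K223R, 0.238 ± 0.066 in wild type with IL-4 and 0.264 ± 0.081 in untreated wild type (SD, n = 4 each). Pcx did not reach 1 FPKM in 4 libraries and was not tested, which left 45 members: 24 of the TCA branch and all 21 of the beta-oxidation branch, among 9891 genes tested.

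IL-4 raised a large share of both branches in both genotypes. In K223R macrophages 12 of 24 TCA-branch genes (50%) and 7 of 21 beta-oxidation genes (33.3%) were called higher with IL-4, against 13.5% of all genes tested, where a call is a limma adjusted p under 0.05 over all genes. In wild-type macrophages 9 of 24 TCA-branch genes (37.5%) and 7 of 21 beta-oxidation genes (33.3%) were called higher, against 10.7% of all genes. Calls of lower expression were few: 5 of 45 members (11.1%) in K223R, against 29.1% of all genes, and 1 of 45 (2.22%) in wild type, against 15.3% of all genes. In K223R 4 of the 5 lower genes belonged to the beta-oxidation branch, and they act before the oxidation spiral or beside it rather than in it.

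The median member changed by 0.11 on the log2(FPKM + 1) scale in K223R, with 0.14 for the TCA branch and 0.11 for the beta-oxidation branch, while the median of all genes tested was -0.09. In wild type the median member changed by 0.10, with 0.15 and 0.08 for the branches, and the median gene by -0.04. In 22 members all 4 K223R libraries with IL-4 lay above all 4 untreated ones and in 4 they lay below, against 12.8% and 27.8% of all genes. In wild type these counts were 20 and 1, against 11.5% and 16.6% of all genes. Scaling the libraries by median ratios, which brings the median gene to about 0 and shifts it by 0.094 in K223R, gave 27 higher and 3 lower members in K223R. Of the 19 members called higher in K223R and 16 in wild type, 15 were shared, so 78.9% of the K223R list and 93.8% of the wild-type list.

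**Figure D1:**
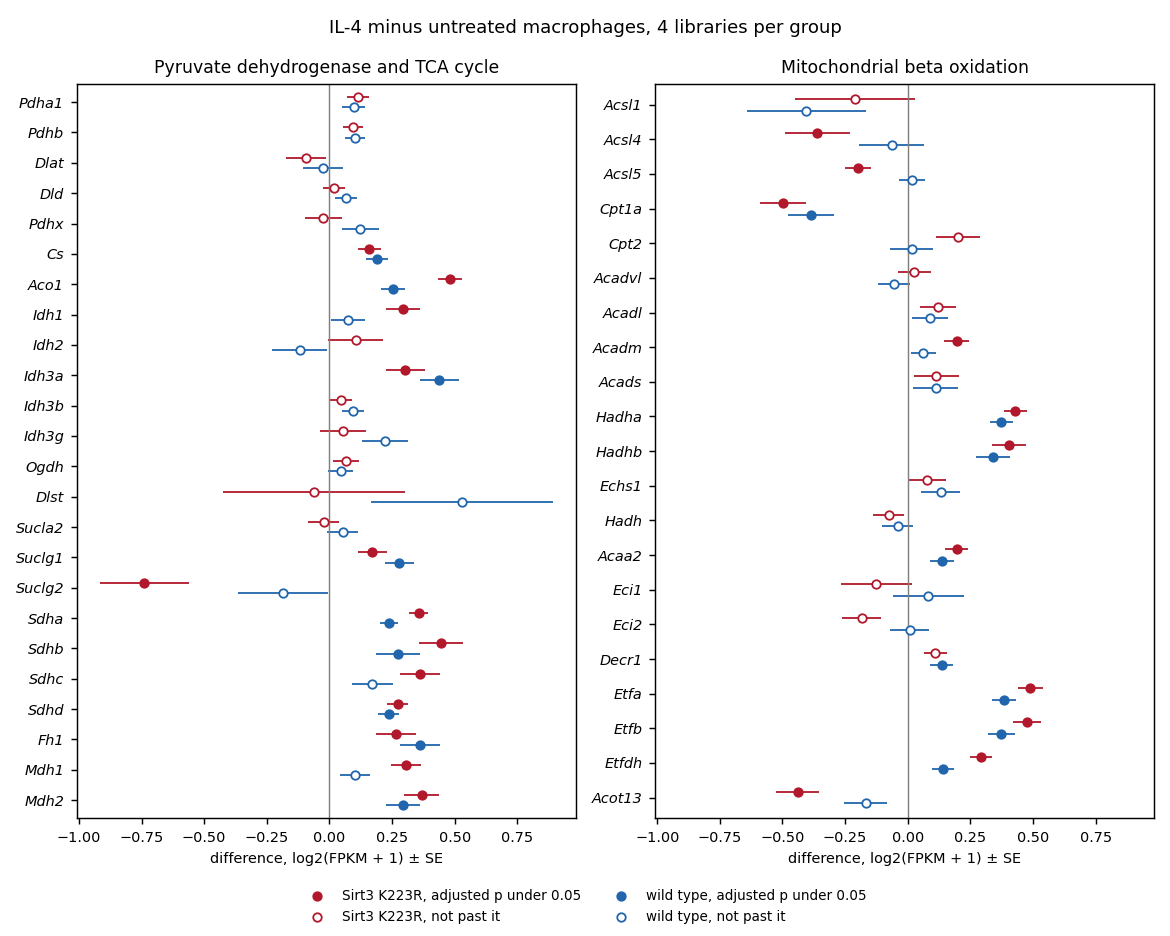
Difference between IL-4 and untreated macrophages for the 45 members tested, on the log2(FPKM + 1) scale with SE, for Sirt3 K223R (red, upper point) and wild type (blue, lower point), 4 libraries per group. Filled points have a limma adjusted p under 0.05; most filled points lie right of 0, and Suclg2, Cpt1a, Acot13, Acsl4 and Acsl5 lie left of it in K223R.

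Succinate dehydrogenase, complex II of the respiratory chain, had 4 of 4 subunits called higher with IL-4 in K223R and 3 of 4 in wild type. Sdha, the flavin-carrying catalytic subunit (chr13:74322254-74350280, GRCm38), had 72.2, 73.0, 76.1 and 75.0 FPKM in K223R libraries with IL-4, against 57.7, 56.7, 58.9 and 57.3 FPKM in untreated K223R libraries. Its wild-type values were 70.7, 66.98, 68.3 and 68.4 FPKM with IL-4, against 55.9, 56.9, 60.0 and 59.5 FPKM untreated. In both genotypes the lowest IL-4 library lay well above the highest untreated library. The differences were 0.36 ± 0.04 in K223R (SE, limma adjusted p = 1.71e-06) and 0.24 ± 0.04 in wild type (limma adjusted p = 0.000186).

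Sdhd showed the same separation at a higher level, with 119, 115, 130 and 123 FPKM in K223R with IL-4 against 102, 97.2, 103 and 100 FPKM untreated. In wild type Sdhd had 118, 119, 121 and 115 FPKM with IL-4 against 102, 101, 97.3 and 99.8 FPKM untreated. No IL-4 library of either genotype fell among the untreated ones, and the differences were 0.27 ± 0.04 in K223R (limma adjusted p = 8.51e-05) and 0.24 ± 0.04 in wild type (limma adjusted p = 0.000505). Sdhb, the iron-sulfur subunit, averaged 73.6 ± 9.6 FPKM in K223R with IL-4 and 53.4 ± 2.1 untreated, and 66.5 ± 6.8 FPKM in wild type with IL-4 and 54.7 ± 4.4 untreated (SD, n = 4 each). Its differences were 0.45 ± 0.09 in K223R (limma adjusted p = 0.000792) and 0.28 ± 0.09 in wild type (limma adjusted p = 0.0299), where the call was lost without wild-type IL-4 replicate 2 or 3 or untreated replicate 1 or 4 (adjusted p = 0.0564 to 0.0993). Sdhc, the other membrane anchor, averaged 44.7 ± 6.7 FPKM in K223R with IL-4 and 34.3 ± 1.0 untreated, with a difference of 0.36 ± 0.08 (limma adjusted p = 0.00212). In wild type Sdhc averaged 40.5 ± 2.5 FPKM with IL-4 and 35.8 ± 2.1 untreated, and its difference of 0.17 ± 0.08 did not pass the test (limma adjusted p = 0.142). The K223R means of Sdhb and Sdhc include replicate 2, which was their highest library at 87.5 and 54.6 FPKM. Without that library, wild-type Sdhc was called higher (adjusted p = 0.0193).

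Of the 3 cytosolic enzymes in the branch, Aco1 was called higher with IL-4 in both genotypes, and Idh1 and Mdh1 in K223R. Aco1, the cytosolic aconitase that also serves as an iron regulatory protein, had 30.3, 30.2, 31.9 and 30.5 FPKM in K223R with IL-4, against 21.2, 22.3, 21.8 and 21.5 FPKM untreated. Wild-type libraries had 27.6, 25.9, 25.1 and 26.4 FPKM of Aco1 with IL-4, against 23.0, 19.8, 22.5 and 22.2 FPKM untreated. The groups were separate in both genotypes and furthest apart in K223R. The differences were 0.48 ± 0.05 in K223R (limma adjusted p = 1.13e-06), the smallest p among the members, and 0.25 ± 0.05 in wild type (limma adjusted p = 0.000976).

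Idh1, which makes cytosolic NADPH from isocitrate, had 200.3, 174, 211 and 203 FPKM in K223R with IL-4, against 170.4, 146, 171 and 155 FPKM untreated. Wild-type libraries had 158, 162, 172 and 156 FPKM of Idh1 with IL-4, against 147, 146, 157 and 165 FPKM untreated. The K223R groups were separate and the wild-type groups overlapped. The difference was 0.29 ± 0.07 in K223R (limma adjusted p = 0.00275), lost under quantile normalization (adjusted p = 0.272), and 0.08 ± 0.07 in wild type (limma adjusted p = 0.465). Idh2, the mitochondrial NADP-dependent enzyme, passed in neither genotype, with 13.8 ± 1.7 FPKM in K223R with IL-4 and 12.8 ± 1.6 untreated, and 13.4 ± 1.6 FPKM in wild type with IL-4 and 14.7 ± 1.9 untreated (SD, n = 4 each).

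Malate dehydrogenase, the last step of the cycle, rose in its mitochondrial form in both genotypes. Mdh2 had 42.1, 53.6, 42.9 and 43.1 FPKM in K223R with IL-4 against 34.1, 36.0, 33.0 and 36.2 FPKM untreated, and 43.7, 45.4, 44.2 and 41.1 FPKM in wild type with IL-4 against 33.6, 37.9, 36.0 and 34.1 FPKM untreated. Replicate 2 was again the highest K223R library, and the groups stayed separate in both genotypes. The Mdh2 differences were 0.37 ± 0.07 in K223R (limma adjusted p = 0.000566) and 0.29 ± 0.07 in wild type (limma adjusted p = 0.00503). Mdh1, the cytosolic partner in the malate-aspartate shuttle, rose in K223R by 0.30 ± 0.06 (limma adjusted p = 0.000809), to 78.0 ± 8.6 FPKM against 62.8 ± 0.94 untreated (SD, n = 4 each). In wild type Mdh1 averaged 79.4 ± 2.5 FPKM with IL-4 and 74.0 ± 2.4 untreated, a difference of 0.10 ± 0.06 that did not pass the test (limma adjusted p = 0.244) but did without replicate 2 of K223R with IL-4 (adjusted p = 0.0445).

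Among the genes of the other steps of the cycle, Idh3a, Suclg1, Fh1 and Cs rose in both genotypes. Idh3a, the catalytic subunit of the NAD-dependent isocitrate dehydrogenase, had 7.54, 6.29, 7.98 and 8.66 FPKM in K223R with IL-4 against 6.14, 5.79, 5.95 and 5.93 FPKM untreated. In wild type it had 9.42, 8.55, 8.61 and 7.86 FPKM with IL-4 against 6.38, 6.28, 5.41 and 6.30 FPKM untreated. Its differences were 0.30 ± 0.08 in K223R (limma adjusted p = 0.00585) and 0.44 ± 0.08 in wild type (limma adjusted p = 0.000604). The groups were separate in both genotypes, by a narrow margin in K223R, where replicate 2 with IL-4 was the lowest. The other subunits of the same enzyme, Idh3b and Idh3g, did not pass in either genotype, with differences of 0.05 ± 0.04 and 0.05 ± 0.09 in K223R and 0.10 ± 0.04 and 0.22 ± 0.09 in wild type. Without replicate 2 or 3 of K223R with IL-4, Idh3g was called higher in wild type (adjusted p = 0.0336 and 0.0373), and median-ratio scaling called Idh3b higher in both genotypes, by 0.16 in K223R and 0.15 in wild type, and Idh3g in wild type, by 0.27.

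Fh1, the fumarase, had 13.8, 11.7, 12.2 and 12.5 FPKM in K223R with IL-4 against 10.3, 10.7, 9.67 and 10.3 FPKM untreated. In wild type Fh1 had 12.9, 14.8, 15.2 and 11.3 FPKM with IL-4 against 10.1, 10.2, 11.1 and 9.59 FPKM untreated. The groups did not overlap, and the differences were 0.27 ± 0.08 in K223R (limma adjusted p = 0.0145) and 0.36 ± 0.08 in wild type (limma adjusted p = 0.00317). Cs, the citrate synthase that admits acetyl-CoA to the cycle, rose by smaller amounts, 0.16 ± 0.05 in K223R (limma adjusted p = 0.0106) and 0.19 ± 0.05 in wild type (limma adjusted p = 0.00531). Cs averaged 31.5 ± 0.81 FPKM in K223R with IL-4 and 28.2 ± 1.2 untreated, and 31.5 ± 1.5 FPKM in wild type with IL-4 and 27.4 ± 0.94 untreated (SD, n = 4 each).

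Succinyl-CoA ligase, the step that makes ATP or GTP directly, was split. Suclg1, its shared alpha subunit, had 15.9, 19.6, 16.3 and 17.0 FPKM in K223R with IL-4 against 15.1, 15.1, 15.5 and 14.8 FPKM untreated, and 18.5, 18.4, 19.1 and 17.4 FPKM in wild type with IL-4 against 14.6, 15.96, 15.0 and 14.3 FPKM untreated. The groups were separate in both genotypes, more widely in wild type. Suclg1 rose by 0.28 ± 0.06 in wild type (limma adjusted p = 0.00213) and by 0.17 ± 0.06 in K223R (limma adjusted p = 0.0284), a call that was lost without replicate 2 of K223R with IL-4 (adjusted p = 0.0689) and without untreated K223R replicates 1, 2 or 4 (adjusted p = 0.0541 to 0.0648).

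Suclg2, the beta subunit of the GTP-linked form (chr6:95473009-95718800, GRCm38), was the 1 TCA-branch gene called lower. It had 2.79, 2.39, 2.75 and 2.71 FPKM in K223R with IL-4, against 5.10, 4.88, 5.19 and 5.23 FPKM untreated. These groups lay far apart and each was tight. Wild-type libraries had 3.41, 3.17, 3.03 and 3.49 FPKM of Suclg2 with IL-4, against 2.79, 2.29, 6.12 and 5.25 FPKM untreated. The untreated wild-type libraries fell into a low and a high pair on either side of the IL-4 libraries, so that this group had a coefficient of variation of 45.3%. The difference was -0.74 ± 0.18 in K223R (limma adjusted p = 0.00388) and -0.19 ± 0.18 in wild type (limma adjusted p = 0.501). Sucla2, the beta subunit of the ATP-linked form, passed in neither genotype, with 12.8 ± 0.89 FPKM in K223R with IL-4 and 13.1 ± 0.38 untreated, and 13.3 ± 1.0 FPKM in wild type with IL-4 and 12.8 ± 0.67 untreated (SD, n = 4 each).

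The entry complex did not follow. Of the 5 pyruvate dehydrogenase genes measured (Pdha1, Pdhb, Dlat, Dld and Pdhx), none was called by limma in either genotype, with differences between -0.09 and 0.11 in K223R and between -0.03 and 0.12 in wild type. Pdha1 in K223R had the smallest p of them (limma adjusted p = 0.0546), with 22.1 ± 0.56 FPKM with IL-4 and 20.3 ± 0.38 untreated (SD, n = 4 each). Under median-ratio scaling Pdha1, Pdhb and Dld were called higher in both genotypes, by 0.22, 0.20 and 0.13 in K223R and 0.15, 0.15 and 0.12 in wild type. Pdha1 shares 603 exonic bases with Map3k15 on the opposite strand, and whether counting used strand is not given. The 2-oxoglutarate dehydrogenase complex was not called either: Ogdh differed by 0.07 ± 0.05 in K223R and 0.05 ± 0.05 in wild type, but by 0.17 in K223R under median-ratio scaling, where it was called higher (adjusted p = 0.00655). Dlst, its succinyltransferase, singled out after its values were seen, was uneven within groups, with 4.76, 7.31, 3.71 and 4.21 FPKM in K223R with IL-4, 2.94, 3.84, 10.3 and 5.49 FPKM in untreated K223R, 6.01, 9.95, 3.59 and 10.5 FPKM in wild type with IL-4 and 9.21, 3.23, 3.67 and 3.63 FPKM in untreated wild type.

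On the beta-oxidation side, the electron transfer flavoprotein and its oxidoreductase, which carry electrons from the acyl-CoA dehydrogenases to ubiquinone, rose as a unit: 3 of 3 genes were called higher in each genotype. Etfa, the alpha subunit (chr9:55454508-55512243, GRCm38), had 45.1, 45.3, 45.8 and 44.9 FPKM in K223R with IL-4, against 34.0, 31.5, 30.2 and 32.3 FPKM untreated. Wild-type libraries had 42.6, 43.5, 43.5 and 42.3 FPKM of Etfa with IL-4, against 32.1, 36.1, 32.5 and 30.4 FPKM untreated. The IL-4 libraries of each genotype lay within about 1 FPKM of each other and far above the untreated ones. The differences were 0.49 ± 0.05 in K223R (limma adjusted p = 1.36e-06) and 0.38 ± 0.05 in wild type (limma adjusted p = 3.05e-05).

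Etfb, the beta subunit, had 47.6, 53.6, 51.8 and 46.3 FPKM in K223R with IL-4 against 35.4, 37.2, 32.5 and 37.1 FPKM untreated, and 52.9, 48.5, 52.1 and 50.8 FPKM in wild type with IL-4 against 38.4, 39.0, 39.4 and 39.9 FPKM untreated. The separation was complete in both, and the differences were 0.48 ± 0.05 in K223R (limma adjusted p = 5.04e-06) and 0.37 ± 0.05 in wild type (limma adjusted p = 0.000101). A protein-coding gene model on the same strand, Gm45233, shares 617 exonic bases with Etfb, so that its value is uncertain where reads could be divided. Etfdh, the membrane oxidoreductase, had 7.60, 7.06, 7.61 and 7.10 FPKM in K223R with IL-4 against 5.83, 5.81, 6.00 and 5.63 FPKM untreated. In wild type Etfdh had 6.91, 6.75, 6.89 and 6.46 FPKM with IL-4 against 6.06, 5.98, 6.33 and 5.76 FPKM untreated. All IL-4 libraries lay above the untreated ones of their genotype, by less in wild type. The Etfdh differences were 0.29 ± 0.04 in K223R (limma adjusted p = 8.84e-05) and 0.14 ± 0.04 in wild type (limma adjusted p = 0.0282). The wild-type call was lost without wild-type IL-4 replicate 1, 2 or 3 or untreated replicate 1, 2 or 4 (adjusted p = 0.0531 to 0.0909).

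The trifunctional protein, which hydrates, dehydrogenates and cleaves long acyl chains at the inner membrane, was the other part of the pathway in which each measured subunit rose in each genotype. Hadha, the alpha subunit, had 24.7, 23.8, 25.1 and 26.4 FPKM in K223R with IL-4, against 18.2, 18.7, 17.8 and 18.6 FPKM untreated. Wild-type libraries had 23.5, 23.7, 22.3 and 23.6 FPKM of Hadha with IL-4, against 16.9, 17.2, 17.8 and 19.0 FPKM untreated. Hadhb, the beta subunit, had 13.9, 13.3, 15.3 and 15.7 FPKM in K223R with IL-4 against 10.5, 10.9, 11.1 and 10.3 FPKM untreated, and 15.0, 14.1, 12.6 and 14.0 FPKM in wild type with IL-4 against 11.3, 10.2, 9.95 and 11.8 FPKM untreated. Both subunits were separate in both genotypes. Hadha rose by 0.43 ± 0.05 in K223R (limma adjusted p = 2.27e-06) and 0.37 ± 0.05 in wild type (limma adjusted p = 1.90e-05). Hadhb rose by 0.40 ± 0.07 in K223R (limma adjusted p = 0.000192) and 0.34 ± 0.07 in wild type (limma adjusted p = 0.00136).

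Hadha (chr5:30118304-30155162) and Hadhb (chr5:30155248-30184593) lie head to head on opposite strands, and their promoter windows share DNA. The RefSeq promoter windows of the GRCm38.p6 build, 250 bases before to 50 after each start, overlap by 228 bases, chr5:30155003-30155230. The shared stretch is shown because, by the RefSeq starts, a pair with nearly equal responses reads away from it in both directions. It is printed on the minus strand, 5′ to 3′ from 250 to 23 bases before the RefSeq start of Hadha. A match to the STAT motif TTCNNNGAA is in capitals. By the Hadha coordinates above, that gene starts at 30155162, so much of the stretch and the match lie inside it.
Hadha and Hadhb: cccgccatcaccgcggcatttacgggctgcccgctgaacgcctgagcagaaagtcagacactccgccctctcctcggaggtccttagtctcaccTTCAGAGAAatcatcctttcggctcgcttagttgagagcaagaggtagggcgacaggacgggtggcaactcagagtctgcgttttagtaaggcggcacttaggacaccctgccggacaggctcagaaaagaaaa
The match is a description of letters. TTCNNNGAA, searched on both strands, occurred in 8.3% of all 32851 promoter windows of the table and in 3 of the 49 windows of the 41 members found there (6.12%), those of Hadha, Hadhb and Cpt2, and the first 2 hold the same match. The longer-spaced form TTCNNNNGAA occurred in 6.95% of all windows and 2 member windows (4.08%), of Fh1 and Idh3b.

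Of the other motifs searched, the NRF1 core GCGCATGC occurred in 2.71% of all windows and in 6 of 49 member windows (12.2%), belonging to Etfa, Etfdh, Acadm, Sdhb and Ogdh. Of these 5 genes, Etfa, Etfdh and Sdhb were called higher with IL-4 in both genotypes, Acadm in K223R and Ogdh in neither. Of all 45 members tested, 42.2% were called higher in K223R and 35.6% in wild type, against 13.5% and 10.7% of all genes. The 2 Ogdh windows hold the same match, so the 6 windows count 1 site more than once. Both strands were searched, the core read from the other strand is GCATGCGC, and the Etfdh window holds both in overlap. The stretches around the core in the 4 genes called with IL-4 are shown 5′ to 3′ on the strand of the gene, core in capitals. These stretches were picked by the calls and that of Ogdh is left out, so they cannot tie the core to the response. The part of the core in the response was not tested. They come from chr9:55512321-55512368 (minus), chr3:79628868-79628915 (minus), chr3:153944774-153944821 (minus) and chr4:140961197-140961244 (plus), in the order given, RefSeq windows of GRCm38.p6.
Etfa: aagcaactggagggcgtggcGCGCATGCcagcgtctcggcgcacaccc
Etfdh: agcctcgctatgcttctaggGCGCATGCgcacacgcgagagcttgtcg
Acadm: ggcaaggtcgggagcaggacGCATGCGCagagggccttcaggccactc
Sdhb: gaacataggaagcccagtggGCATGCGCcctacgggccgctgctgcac
In these windows the core begins 105, 128, 158 and 54 bases before the RefSeq start. The measured gene models of Etfdh and Sdhb start further upstream, at 79629500 and 140961203, so their cores lie inside the gene models. The ETS motif CCGGAAG occurred in 8.86% of all windows and 6 member windows (12.2%), and the ERR element CAAGGTCA in 1.56% of all windows and 2 member windows (4.08%), of Ogdh and Sdhd.

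Of the 5 synthetase and palmitoyltransferase genes that feed the spiral, 3 were called lower with IL-4 in K223R and 1 in wild type. Among all genes, 29.1% and 15.3% were called lower. In either genotype 0 of the 5 were called higher, against 13.5% of all genes in K223R and 10.7% in wild type. Cpt1a, the liver-type carnitine palmitoyltransferase that sets long-chain entry (chr19:3323301-3385732, GRCm38), had 39.8, 28.9, 38.5 and 35.7 FPKM in K223R with IL-4, against 50.1, 48.3, 53.2 and 50.4 FPKM untreated. Wild-type libraries had 36.0, 30.2, 36.4 and 33.6 FPKM of Cpt1a with IL-4, against 45.3, 39.8, 48.8 and 45.4 FPKM untreated. All IL-4 libraries lay below all untreated libraries of their genotype, and replicate 2 was the lowest with IL-4 in both. Cpt1a was the 1 member called lower in both genotypes, by -0.50 ± 0.09 in K223R (limma adjusted p = 0.000408) and -0.39 ± 0.09 in wild type (limma adjusted p = 0.00473). Cpt2, which rebuilds acyl-CoA on the matrix side, did not pass: it averaged 11.0 ± 1.4 FPKM in K223R with IL-4 and 9.37 ± 0.23 untreated, and 10.3 ± 1.1 FPKM in wild type with IL-4 and 10.2 ± 0.83 untreated (SD, n = 4 each). Its difference of 0.20 ± 0.09 in K223R (limma adjusted p = 0.0779) was called higher under median-ratio scaling (0.30, adjusted p = 0.0139), under quantile normalization (0.28, adjusted p = 0.0181) and without replicate 4 of K223R with IL-4 (0.26, adjusted p = 0.0309).

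The long-chain acyl-CoA synthetases activate fatty acids for several fates, oxidation among them. Acsl5 had 27.3, 33.1, 28.9 and 28.3 FPKM in K223R with IL-4, against 32.7, 34.8, 34.0 and 33.9 FPKM untreated. In wild type it had 33.7, 33.6, 33.6 and 34.6 FPKM with IL-4, against 33.6, 31.7, 33.7 and 35.1 FPKM untreated. Replicate 2 alone made the K223R groups overlap, and the wild-type groups lay on each other. The Acsl5 differences were -0.20 ± 0.05 in K223R (limma adjusted p = 0.00710) and 0.02 ± 0.05 in wild type (limma adjusted p = 0.869). Under median-ratio scaling the K223R call was lost at a difference of -0.09 (adjusted p = 0.271). Acsl5 shares 404 exonic bases with Zdhhc6 on the opposite strand.

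Acsl4, the form that prefers arachidonic acid, had 11.7, 6.93, 11.6 and 11.7 FPKM in K223R with IL-4, against 13.1, 13.7, 15.5 and 11.9 FPKM untreated. Wild-type libraries had 14.3, 13.5, 12.04 and 12.1 FPKM of Acsl4 with IL-4, against 13.7, 14.5, 12.7 and 13.5 FPKM untreated. The K223R groups were narrowly separate, and replicate 2 lay far below the other IL-4 libraries. The difference of -0.36 ± 0.13 in K223R (limma adjusted p = 0.0343) became -0.19 without replicate 2, with an adjusted p of 0.0611. The call was also lost without untreated K223R replicates 1, 2 or 3, with adjusted p-values of 0.0529 to 0.105. Median-ratio scaling (limma adjusted p = 0.0983), quantile normalization (0.0652) and a fit of only the 2 groups compared (0.103) lost it too. In wild type the difference was -0.06 ± 0.13 (limma adjusted p = 0.770). Acsl1 passed in neither genotype and was uneven, with group means of 2.32 ± 0.62 FPKM in K223R with IL-4, 2.84 ± 0.75 in untreated K223R, 2.59 ± 1.1 in wild type with IL-4 and 3.72 ± 1.3 in untreated wild type (SD, n = 4 each).

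Acot13, a thioesterase that splits acyl-CoA back to free fatty acid, had 43.5, 39.4, 50.02 and 49.9 FPKM in K223R with IL-4, against 65.7, 62.7, 60.0 and 59.7 FPKM untreated. In wild type it had 60.6, 58.4, 64.7 and 60.4 FPKM with IL-4, against 69.0, 76.6, 57.8 and 72.4 FPKM untreated. The K223R groups were apart by about 10 FPKM, and 1 untreated wild-type library lay below all wild-type IL-4 libraries. The difference was -0.44 ± 0.09 in K223R (limma adjusted p = 0.000748) and -0.17 ± 0.09 in wild type (limma adjusted p = 0.175). Without untreated wild-type replicate 3, that low library, Acot13 was called lower in wild type too, by -0.25 (adjusted p = 0.0307).

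The 4 acyl-CoA dehydrogenases, which take the first step of each round, changed little. Acadm, the medium-chain enzyme, was called in K223R, where it rose by 0.20 ± 0.05 (limma adjusted p = 0.00498) to 21.5 ± 0.98 FPKM, against 18.6 ± 0.57 untreated (SD, n = 4 each). In wild type Acadm averaged 19.3 ± 0.93 FPKM with IL-4 and 18.5 ± 0.92 untreated, a difference of 0.06 ± 0.05 (limma adjusted p = 0.402). Acadvl, Acadl and Acads, for very long, long and short chains, passed in neither genotype, with differences of 0.03 ± 0.07, 0.12 ± 0.07 and 0.11 ± 0.09 in K223R and -0.06 ± 0.07, 0.09 ± 0.07 and 0.11 ± 0.09 in wild type. Without replicate 2 of K223R with IL-4, Acadl was called higher in K223R, by 0.20 (adjusted p = 0.00928), as it was under median-ratio scaling, by 0.23 (adjusted p = 0.00740). Exons of Acadvl, Acsl1, Echs1, Eci2, Etfdh, Hadha, Idh3b and Mdh1 overlap genes on the opposite strand by 5 to 1151 bases, and without a known strand setting those reads cannot be told apart.

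Of the matrix enzymes that complete shorter chains, Acaa2, the thiolase, rose by 0.19 ± 0.05 in K223R (limma adjusted p = 0.00388) and by 0.14 ± 0.05 in wild type (limma adjusted p = 0.0469). Echs1 and Hadh, the hydratase and the hydroxyacyl dehydrogenase, did not pass, with differences of 0.08 ± 0.08 and -0.08 ± 0.06 in K223R and 0.13 ± 0.08 and -0.04 ± 0.06 in wild type. Decr1, the dienoyl reductase for unsaturated chains, differed by 0.11 ± 0.05 in K223R (limma adjusted p = 0.0688), called higher under median-ratio scaling by 0.21 and quantile normalization by 0.20, and rose by 0.14 ± 0.05 in wild type (limma adjusted p = 0.0417). The wild-type calls of Acaa2 and Decr1 were lost when wild-type libraries were paired by number as a replicate block (adjusted p = 0.0594 and 0.0635), and Idh3g was gained (adjusted p = 0.0422). Both calls were also lost without wild-type IL-4 replicates 1, 3 or 4 and untreated replicates 1, 3 or 4, that of Acaa2 also without IL-4 replicate 2 and that of Decr1 without untreated replicate 2, and both without several K223R libraries, with adjusted p-values up to 0.141 and 0.124. The isomerases Eci1 and Eci2 did not pass in either genotype, with differences of -0.13 ± 0.14 and -0.18 ± 0.08 in K223R and 0.08 ± 0.14 and 0.01 ± 0.08 in wild type.

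**Figure D2:**
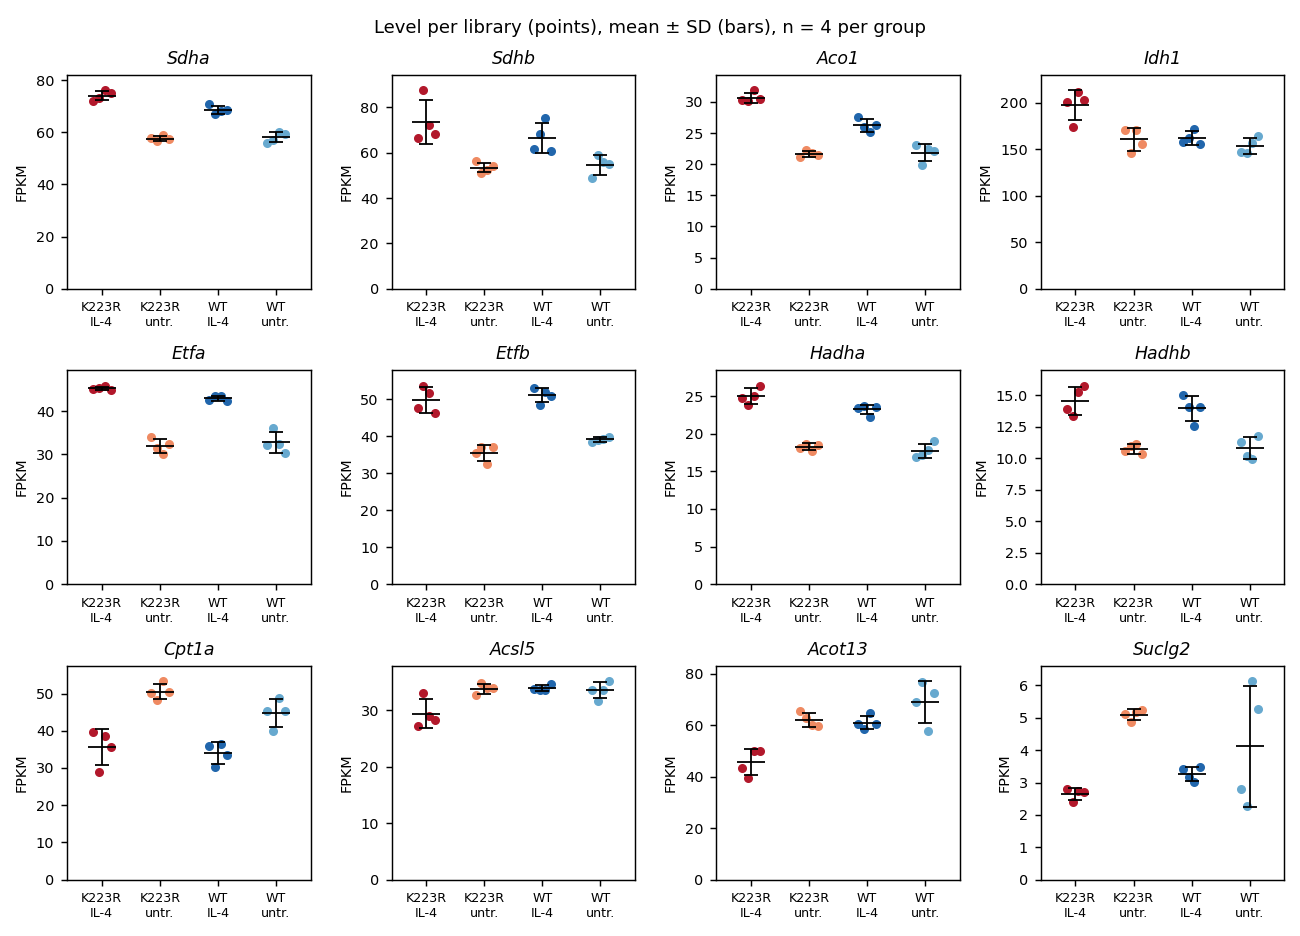
FPKM of 12 members in each library, with group mean and SD, for K223R with IL-4, untreated K223R, wild type with IL-4 and untreated wild type, 4 libraries each, on linear axes from 0. Sdha, Aco1, Etfa, Etfb, Hadha and Hadhb stand higher with IL-4 in both genotypes, Cpt1a stands lower in both, and Acot13 and Idh1 in K223R with IL-4 stand apart from the other 3 groups.

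Summed over members, the 2 branches differed in size of response. The 25 TCA-branch genes summed to 940 ± 17.1 FPKM in K223R with IL-4 and 788 ± 12.7 untreated, and to 893 ± 21.3 FPKM in wild type with IL-4 and 796 ± 10.3 untreated (SD, n = 4 each). The libraries ranged from 916 to 956 FPKM and 771 to 802 FPKM in K223R with and without IL-4, and from 868 to 919 FPKM and 783 to 807 FPKM in wild type with and without IL-4. The 21 beta-oxidation genes summed to 490.0 ± 10.5 FPKM in K223R with IL-4 and 474 ± 5.68 untreated, and to 505 ± 11.8 FPKM in wild type with IL-4 and 482 ± 9.11 untreated. Single libraries ranged from 481 to 502 FPKM and 466 to 479 FPKM in K223R with and without IL-4, and from 494 to 515 FPKM and 474 to 492 FPKM in wild type with and without IL-4. Both branch sums thus stood higher in all IL-4 libraries than in the untreated libraries of their genotype, by a narrow margin for beta oxidation. The ratio of the sums was 1.92 ± 0.034 in K223R with IL-4 and 1.66 ± 0.040 untreated, and 1.77 ± 0.039 in wild type with IL-4 and 1.65 ± 0.031 untreated. These sums are a description without a test, and they lean on the highest genes: Idh1 alone gave 197 of the 940 FPKM in K223R with IL-4.

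**Figure D3:**
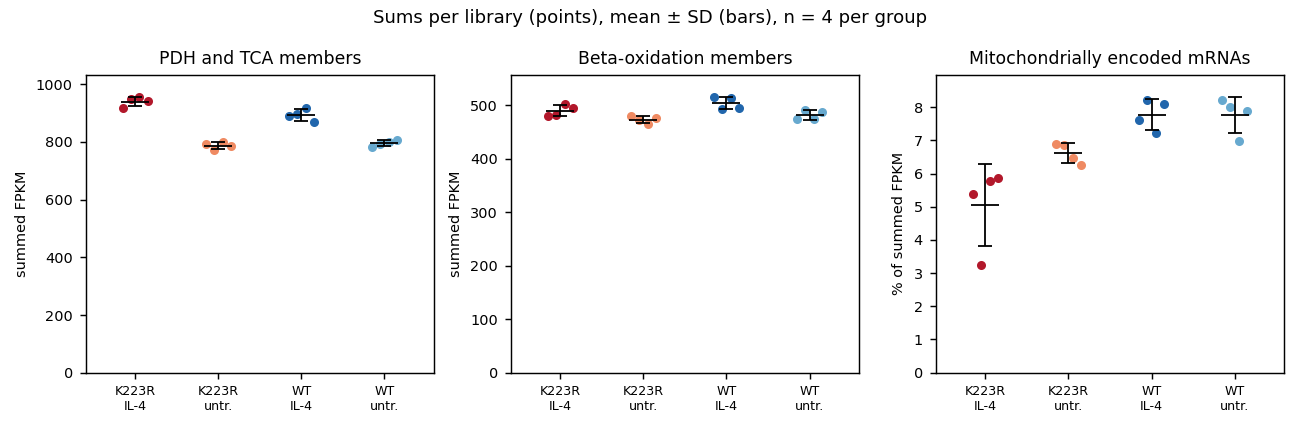
Summed FPKM of the TCA-branch members, summed FPKM of the beta-oxidation members and share of mitochondrially encoded mRNA in each library, with group mean and SD, 4 libraries per group. Both sums with IL-4 lie above the untreated sums in each genotype, narrowly for beta oxidation, and the mitochondrial share is lowest in replicate 2 of K223R with IL-4, at 3.23%.

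Between genotypes with IL-4, few members differed. Aco1 and Idh1 were called higher in K223R than in wild type, and Acsl5 and Acot13 lower. That is 2 of 45 members (4.44%) in each direction, against 5.0% of all genes called higher and 10.0% called lower, so the members' share of higher calls was near the background and their share of lower calls below it. The libraries did not overlap for 8 of 45 members higher and 5 of 45 lower in K223R, against 5.81% and 12.3% of all genes. By this measure the share of higher members lay above the background, unlike the share of calls, and the share of lower members was near it. The median member differed by -0.03 and the median gene by -0.05. The values of these 4 members are given above, and in each case the 4 K223R libraries lay on 1 side of the 4 wild-type libraries.

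Aco1 differed by 0.22 ± 0.05 (limma adjusted p = 0.00720) and Idh1 by 0.28 ± 0.07 (limma adjusted p = 0.0121), both enzymes of the cytosol. Acot13 differed by -0.42 ± 0.09 (limma adjusted p = 0.00503) and Acsl5 by -0.20 ± 0.05 (limma adjusted p = 0.0184). The Acsl5 call was lost without K223R IL-4 replicate 1 (adjusted p = 0.0565) or 4 (adjusted p = 0.0508) and under median-ratio scaling (adjusted p = 0.147). Without replicate 2 of K223R with IL-4 the counts were 3 higher and 3 lower, with Sdha and Suclg1 added. Median-ratio scaling gave 8 higher and 1 lower, adding Acaa2, Acadm, Etfdh, Hadha, Ogdh and Sdha, so which way the members lean depends on the scaling. The K223R libraries with IL-4 also held less mitochondrially encoded mRNA than wild type, 5.06% ± 1.24 against 7.78% ± 0.455 of summed FPKM (SD, n = 4 each), and the part of this in the differences was not tested.

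**Figure D4:**
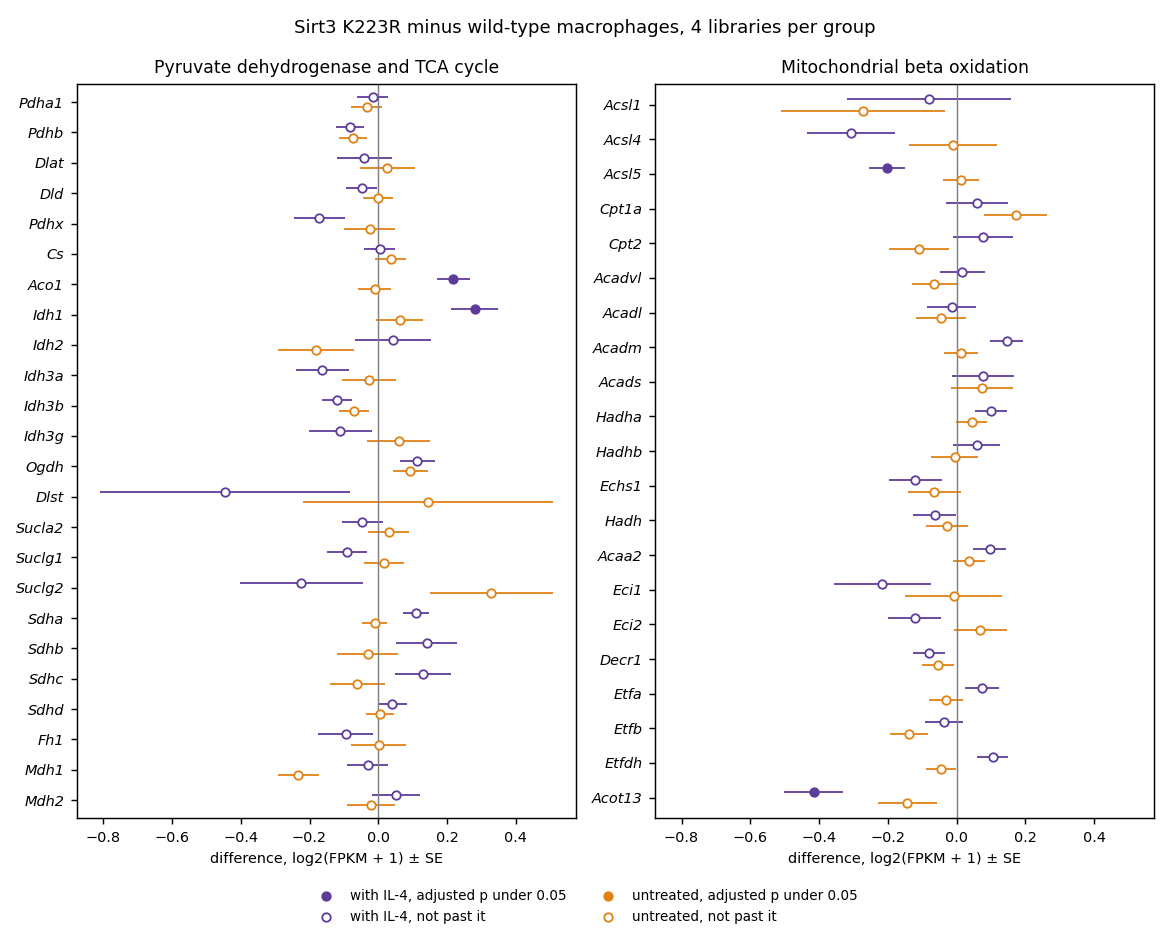
Difference between Sirt3 K223R and wild-type macrophages for the 45 members tested, on the log2(FPKM + 1) scale with SE, with IL-4 (purple, upper point) and untreated (orange, lower point), 4 libraries per group. Filled points have a limma adjusted p under 0.05: Aco1 and Idh1 right of 0 and Acsl5 and Acot13 left of it, with IL-4.

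In untreated macrophages no member differed between genotypes by limma, and neither did any of the 9891 genes (0.0% called higher and 0.0% lower), although 737 genes and 2 members had an unadjusted p under 0.05. The 2 members were Mdh1 and Etfb, named after their values were seen. Mdh1 had 61.5, 63.7, 63.2 and 62.6 FPKM in untreated K223R, against 71.9, 75.1, 76.8 and 72.0 FPKM in untreated wild type. Every K223R library lay below every wild-type library by at least about 8 FPKM, and the difference was -0.23 ± 0.06 (limma adjusted p = 0.315). Etfb had the values given above, also without overlap, and differed by -0.14 ± 0.05 (limma adjusted p = 0.595). Libraries did not overlap for these 2 members lower in K223R and for 0 higher, against 2.66% and 2.44% of all genes.

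The size of the IL-4 response itself was compared by the interaction, the K223R response minus the wild-type response. No member was called, against 0.778% of all genes with a more positive response in K223R and 1.36% with a more negative one, and 8 members (17.8%) had an unadjusted p under 0.05, near the 16.1% of all genes. The smallest member value was that of Aco1, whose response was larger in K223R by 0.23 ± 0.07 (limma adjusted p = 0.102). Acsl5 was next, at -0.21 ± 0.07 (limma adjusted p = 0.165). Acot13 stood at -0.27 ± 0.12 (limma adjusted p = 0.279), and Suclg2 at -0.55 ± 0.25 (limma adjusted p = 0.297). Aco1 was called under median-ratio scaling and without untreated wild-type replicate 2, and Acsl5 without replicate 2 of K223R with IL-4. Thus Acadm, Idh1, Mdh1 and Sdhc, called higher with IL-4 in K223R alone, and Suclg2, Acsl4, Acsl5 and Acot13, called lower in K223R alone, are not shown to respond differently between genotypes.

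Ratios within a library, which do not depend on library scaling, were compared for 5 pairs of related enzymes in 4 comparisons, 20 exact permutation tests in all. The tests and SE treat all libraries as unpaired, including the wild-type libraries, which may pair by number. The smallest 2-sided p that 4 against 4 libraries allow is 0.0286, and after Benjamini-Hochberg adjustment over the 20 none passed, the smallest being 0.114 in exact tests. The ratio of Suclg2 to Sucla2 was 0.204, 0.184, 0.210 and 0.233 in K223R with IL-4, against 0.408, 0.367, 0.389 and 0.3995 untreated, without overlap, a log2 difference of -0.92 ± 0.08 (SE, exact permutation p = 0.0286, adjusted p = 0.114). In wild type it averaged 0.247 ± 0.028 with IL-4 and 0.325 ± 0.16 untreated (SD, n = 4 each, exact permutation p = 0.486).

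The ratio of Cpt1a to Cpt2 was 3.99, 2.35, 3.17 and 3.75 in K223R with IL-4, against 5.42, 4.97, 5.74 and 5.44 untreated. In wild type it was 3.11, 2.78, 4.06 and 3.38 with IL-4, against 4.55, 4.33, 4.38 and 4.31 untreated. The groups were separate in both genotypes, with log2 differences of -0.73 ± 0.18 in K223R and -0.41 ± 0.12 in wild type (exact permutation p = 0.0286 and adjusted p = 0.114 for both). Untreated K223R libraries also had a higher ratio than untreated wild-type libraries in all 4 against all 4, by 0.29 ± 0.05 on the log2 scale (exact permutation p = 0.0286, adjusted p = 0.114). The ratio of Mdh1 to Mdh2 was 1.80, 1.77, 1.92 and 1.73 in untreated K223R, against 2.14, 1.98, 2.14 and 2.11 in untreated wild type, again without overlap and by -0.21 ± 0.04 (exact permutation p = 0.0286, adjusted p = 0.114). The ratios of Idh1 to Idh2 and of Acsl1 to Acsl4 overlapped between groups in all 4 comparisons.

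**Figure D5:**
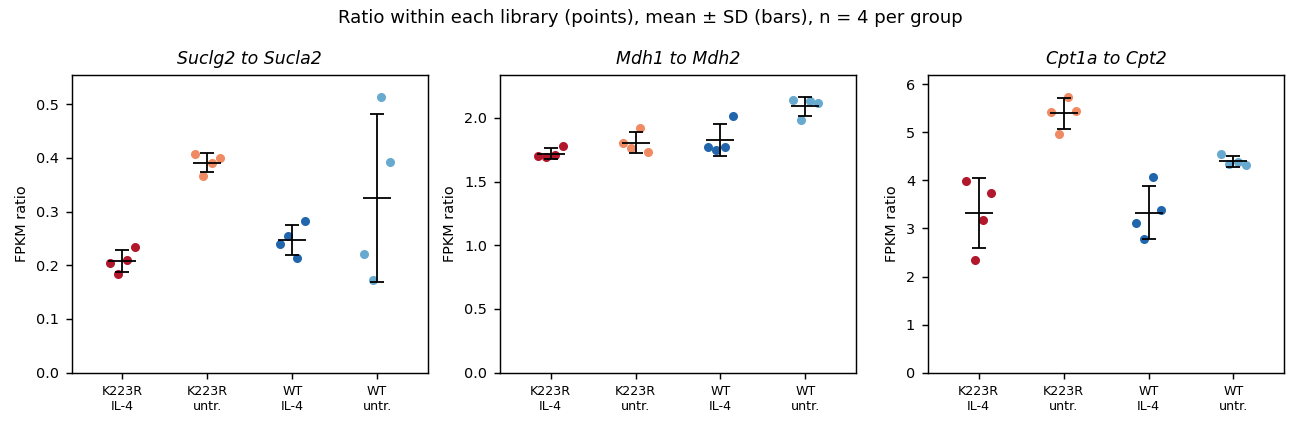
FPKM ratios of Suclg2 to Sucla2, Mdh1 to Mdh2 and Cpt1a to Cpt2 within each library, with group mean and SD, 4 libraries per group, on linear axes from 0. The Suclg2 ratio in K223R with IL-4 reaches at most 0.233 while untreated K223R lies at 0.367 or more, and the untreated wild-type libraries spread from 0.173 to 0.514.

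Genes around the 2 branches were counted from lists, to be read against the shares of all genes called with IL-4: 13.5% higher and 29.1% lower in K223R, and 10.7% higher and 15.3% lower in wild type. Of 8 genes for pyruvate carriers and for the kinases and phosphatases of pyruvate dehydrogenase, 3 were called higher and 1 lower with IL-4 in K223R, and 1 higher in wild type. Pdp1, a phosphatase that activates the complex, averaged 18.2 ± 1.4 FPKM in K223R with IL-4 and 11.3 ± 0.77 untreated (SD, n = 4 each), a difference of 0.64 ± 0.08 (limma adjusted p = 1.47e-05). The inhibitory kinases were split, Pdk1 at -0.46 ± 0.08 (limma adjusted p = 0.000443) and Pdk3 at 0.41 ± 0.10 (limma adjusted p = 0.00272) in K223R, and Pdk3 at 0.29 ± 0.10 (limma adjusted p = 0.0377) in wild type. With IL-4, Pdk2 and Pdp1 were called higher in K223R macrophages, by 0.33 ± 0.06 and 0.30 ± 0.08, and Pdk1 lower, by -0.28 ± 0.08.

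Of 7 genes for lipoylation and succinate dehydrogenase assembly, 1 was called higher and 3 lower in K223R, and 2 higher in wild type. Sdhaf2, which helps to insert the flavin of Sdha, rose in both, by 0.32 ± 0.05 in K223R (limma adjusted p = 9.25e-05) and 0.16 ± 0.05 in wild type (limma adjusted p = 0.0237). Of 8 genes that branch off the cycle, 1 was called higher and 5 lower in K223R, and 1 higher and 3 lower in wild type. The higher one in each was Acss1, the mitochondrial acetyl-CoA synthetase, with 8.74 ± 0.77 FPKM in K223R with IL-4 and 4.45 ± 0.30 untreated, and 6.21 ± 0.93 FPKM in wild type with IL-4 and 4.30 ± 0.39 untreated (SD, n = 4 each). Acss1 rose by 0.84 ± 0.09 in K223R (limma adjusted p = 2.08e-06) and 0.44 ± 0.09 in wild type (limma adjusted p = 0.00155), and with IL-4 it was higher in K223R by 0.44 ± 0.09 (limma adjusted p = 0.00433). Pck2, the mitochondrial phosphoenolpyruvate carboxykinase, fell by 0.46 on the log2 scale in K223R and by 0.51 in wild type.

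Of 20 further genes of mitochondrial acyl-CoA metabolism, 5 were called higher and 3 lower in K223R, and 1 higher and 3 lower in wild type, where neither share exceeded that of all genes. Acat1, the acetoacetyl-CoA thiolase, rose by 0.41 ± 0.07 in K223R (limma adjusted p = 0.000166) and 0.40 ± 0.07 in wild type (limma adjusted p = 0.000400). Crat, the carnitine acetyltransferase, rose in K223R by 0.77 ± 0.12 (limma adjusted p = 0.000126). Of 18 peroxisomal genes, 5 were called higher and 3 lower in K223R, and 2 higher and 1 lower in wild type. Abcd2, a peroxisomal fatty acyl-CoA transporter, had the largest difference among them, 1.16 ± 0.08 in K223R (limma adjusted p = 2.04e-08) and 1.17 ± 0.08 in wild type (limma adjusted p = 3.78e-08), at 22.7 ± 1.6 FPKM in K223R with IL-4 and 9.59 ± 0.22 untreated, and 22.6 ± 2.4 FPKM in wild type with IL-4 and 9.50 ± 0.97 untreated (SD, n = 4 each). With IL-4, Acox3 and Ehhadh were among the genes called higher in K223R than in wild type, by 0.30 ± 0.05 and 0.31 ± 0.08.

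Of 13 transcriptional regulators of oxidative metabolism, 3 were called higher and 5 lower in K223R, and 2 higher and 4 lower in wild type. Pparg, the lipid-sensing nuclear receptor, averaged 41.4 ± 4.0 FPKM in K223R with IL-4 and 19.1 ± 1.2 untreated, and 41.4 ± 5.2 FPKM in wild type with IL-4 and 20.4 ± 1.7 untreated (SD, n = 4 each). Its differences were 1.07 ± 0.09 in K223R (limma adjusted p = 2.03e-07) and 0.98 ± 0.09 in wild type (limma adjusted p = 9.70e-07). Ppargc1b, a coactivator of oxidative genes, averaged 2.25 ± 0.49 FPKM in K223R with IL-4 and 0.412 ± 0.015 untreated, and 1.39 ± 0.28 FPKM in wild type with IL-4 and 0.311 ± 0.096 untreated. It rose by 1.19 ± 0.10 in K223R (limma adjusted p = 2.17e-07) and 0.86 ± 0.10 in wild type (limma adjusted p = 1.23e-05), and with IL-4 it was higher in K223R by 0.44 ± 0.10 (limma adjusted p = 0.00955). Ppard, a related receptor, fell by 0.38 in K223R and by 0.34 in wild type on the log2 scale. Stat6, the factor that IL-4 signals through, differed between genotypes by 0.01 ± 0.05 in untreated macrophages (limma adjusted p = 0.997). No gene of these lists was called in the interaction.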

How the data were processed

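RNA was measured in 16 libraries. Per the labels' protocols, messenger RNA was isolated by its poly(A) tail, or ribosomal RNA was depleted instead, before stranded libraries were made. The labels do not assign either method to a library. The authors deposited a value per gene that is taken as FPKM: the file headers name no unit, the values are not whole numbers, and TPM over a larger gene set cannot be told apart from it. Only 4.19% of 334 low genes shared the commonest ratio between a pair of libraries, so no whole reads could be recovered and depth is unknown. The aligner, the counting tool and its strand setting: not given in the sources used here. Only the K223R files hold a column of gene types. Any genotype-specific step of the authors' pipeline cannot be told apart from the genotype. Coordinates are those of the files; for 41 of 46 members they were found with the same gene version in GENCODE M21 (GRCm38), and 5 have another version there. Exons of 11 members overlap another annotated gene. RefSeq promoter windows were matched by symbol for 41 members. Each file's 1 blank line was left out.

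A pseudocount of 1 was added before taking log2, so fold changes of weakly expressed genes come out too small. Genes at 1 or more in at least 4 libraries (9891) were fitted with 4 group means over all 16 libraries in limma 3.58.1 (R 4.3.3), using its moderated statistics with a trend on mean level. Benjamini-Hochberg adjustment ran over all genes tested, and a gene was called under 0.05. Ratios were compared with 2-sided exact permutation tests (Python 3.11.15, pandas 2.3.3, scipy 1.17.1). The fit was checked on simulated data. Values of every library are given, per comparison, for up to 10 called members with the smallest adjusted p and for members called against the direction of most of their branch; of each list up to 3 called genes are given, except 1 that is not reported here. Members and lists were chosen with earlier results of these data known. Alternatives were another pseudocount (0.1), no filter, median-ratio scaling, quantile normalization, only the groups compared, a fixed replicate block, a random replicate block, no trend and each library left out.

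Same-numbered libraries were checked for pairing: each library's distance from its group mean was taken per gene and correlated between the partners. In wild type all 4 pairs of IL-4 and untreated libraries lay above 0.1, at 0.1001 to 0.2864, and all 4 IL-4 libraries matched their own number best. This points to pairing by number but does not establish it, since the values are low and the lowest only just passed the 0.1 used as cutoff. The main fit treats these libraries as unpaired, and the replicate block pairs them. In K223R the correlations lay at -0.0452 to 0.127, where 1 library matched its own number best, and between genotypes at -0.166 to 0.0427. The values in K223R and between genotypes show no pairing by number but cannot exclude it.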

Additional observations from a re-analysis of the deposited data

Results flagged for a closer look

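In groups of 4, the single library furthest out was checked with Dixon's ratio of its gap to the nearest library over the group's range, at the 95% critical value for 4 samples. Of 184 groups (46 members in 4 groups), 14 passed it, where chance gives about 1 in 20. Of these, 4 fell in replicate 2 of K223R with IL-4, the library that also stood apart in mitochondrially encoded mRNA. There Sdhc stood at 54.6 FPKM, against 40.6 to 42.8 in the other libraries of the group, and Mdh2 at 53.6 FPKM, against 42.1 to 43.1. In the same library Echs1 stood at 10.3 FPKM, against 8.17 to 8.41, and Acsl4 at 6.93 FPKM, against 11.6 to 11.7.

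In replicate 3 of K223R with IL-4, Aco1 stood at 31.9 FPKM, against 30.2 to 30.5, and Acsl1 at 1.40 FPKM, against 2.53 to 2.69. In replicate 1 of that group Ogdh stood at 25.1 FPKM, against 23.9 to 24.0. In untreated K223R, Cpt2 stood at 9.72 FPKM in replicate 2, against 9.24 to 9.27, and Eci1 at 15.9 FPKM in replicate 1, against 13.8 to 13.9. In wild type with IL-4, Acsl5 stood at 34.6 FPKM in replicate 4, against 33.6 to 33.7, and Hadha at 22.3 FPKM in replicate 3, against 23.5 to 23.7. In untreated wild type, Dlst stood at 9.21 FPKM in replicate 1, against 3.23 to 3.67, Eci1 at 11.0 FPKM in replicate 1, against 15.6 to 15.8, and Idh3a at 5.41 FPKM in replicate 3, against 6.28 to 6.38. Several of these gaps are under 1 FPKM and were reached because the other libraries of the group lie close together.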

How the results depend on the processing

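Across 8 alternatives and 16 fits without 1 library each, no called member changed direction. Counts of members called higher with IL-4 stayed at 18 to 20 in K223R and 12 to 19 in wild type when libraries were left out. With the replicate block, which pairs libraries by number, 25 members were called with IL-4 in K223R and 16 in wild type. In wild type Acaa2 and Decr1 were lost, Idh3g was gained and no other call changed. In K223R, where no pairing by number was shown, the block added Pdha1 (limma adjusted p = 0.0416). Median-ratio scaling left 3 members lower in K223R and gave 8 higher and 1 lower between genotypes with IL-4 and 1 higher in the interaction (Aco1). Quantile normalization gave 5 higher between genotypes with IL-4, and a fit of only those groups 1 lower. Without single libraries, members lower with IL-4 in wild type numbered 1 to 2, members lower between genotypes with IL-4 1 to 3, and members called in the interaction 0 to 1 in each direction. The cause of these shifts was not tested. Calls that alternatives took away most often were wild-type Acaa2 (16 of 24 settings, adjusted p up to 0.141), Decr1 (15, up to 0.124), Etfdh (7, up to 0.0909) and Sdhb (5, up to 0.0993), and K223R Acsl4 (7, up to 0.105) and Suclg1 (5, up to 0.0743). Without the filter Pcx was called lower with IL-4 in K223R, by -0.23 (adjusted p = 0.0151), at levels below 0.5 FPKM. Depth is unknown, so no counting error can be given for low members.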

Other observations

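Other transcripts of mitochondria were counted against the shares of all genes: 13.5% higher and 29.1% lower with IL-4 in K223R, 10.7% and 15.3% in wild type, and 5.0% and 10.0% between K223R and wild type with IL-4. Of 13 mitochondrially encoded mRNAs, 6 were called lower with IL-4 in K223R and 0 in wild type by limma, and 10 were called lower in K223R than in wild type with IL-4. In the interaction 0 of the 13 were called (smallest limma adjusted p = 0.144), so a different response between genotypes is not shown. These counts include replicate 2 of K223R with IL-4, whose mitochondrial share was the lowest at 3.23%. Of 16 genes for mitochondrial import, chaperones and the outer membrane, 0 were called higher and 2 lower with IL-4 in K223R, 3 higher and 0 lower in wild type, and 7 lower in K223R than in wild type with IL-4. Hspd1, the matrix chaperonin HSP60, averaged 62.5 ± 1.9 FPKM in K223R with IL-4 and 66.3 ± 3.0 untreated, and 83.6 ± 5.8 FPKM in wild type with IL-4 and 69.4 ± 3.4 untreated (SD, n = 4 each). Its response differed between genotypes by -0.35 ± 0.08 (limma adjusted p = 0.0290). Hspe1, its co-chaperonin, was lower in K223R with IL-4 than in wild type with IL-4 by -0.45 ± 0.06 (limma adjusted p = 0.000285). Of 14 cell cycle genes, 3 were called lower with IL-4 in each genotype, below the share of all genes in K223R and close to it in wild type.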
